A study of Mus musculus with 10 samples.

Results

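The genes of the major histocompatibility complex (MHC, named H2 in the mouse) and of antigen presentation were followed in RNA sequencing of MAF9 cells, mouse bone marrow cells of C57BL/6 background that were transduced with the leukemic fusion gene MLL-AF9. The members were every gene of the count table whose symbol starts with H2-, together with B2m, Tap1, Tap2, Tapbp, Ciita, Cd74, Psmb8, Psmb9, Psmb10, Cd80, Cd86 and Cd40. This gave 56 of the 24015 genes listed. They comprised 32 class I heavy chain genes, 7 partners of class I, 12 class II genes, 3 costimulatory molecules, and H2-Ke2 and H2-Ke6, which lie in the complex but belong to neither class.

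All groups carried MLL-AF9 and grew with IL-3 in medium with serum. The cells were treated for 4 days with DMSO, the solvent control, or with 1 of 4 inhibitors: MM-401 (against the MLL1-WDR5 interaction), EPZ5676 (against the methyltransferase DOT1L, EPZ in the labels), MI-2-2 (against MENIN binding, MI in the labels) or iBET (against the BET bromodomain proteins), each at its IC50 dose. Each of the 5 conditions had 2 libraries, described as biological duplicates. The p-values measure the spread between these duplicates, fitted over all groups together. Whether they came from separate transductions is not stated. The libraries held 20394762 to 29473127 counted reads.

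Class I molecules consist of a polymorphic heavy chain and the light chain beta-2-microglobulin (B2m), and carry peptides cut by the proteasome in the cytosol to CD8 T cells. Class II molecules carry peptides from the endosomal route to CD4 T cells and are typical of dendritic cells, B cells and activated macrophages. A T cell responds fully only if the presenting cell also offers a costimulatory ligand such as CD80 or CD86. Class I genes are under the coactivator NLRC5 and class II genes under CIITA, and interferon gamma induces both.

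One library stood apart from the rest. For the genes Uty, Kdm5d, Ddx3y and Eif2s3y of the Y chromosome, DMSO replicate 2 held 3630 reads and the other libraries 0 to 2. Its level of Xist was 4.65 TMM CPM (defined below) and theirs 1030 to 2820. The DMSO duplicates thus differed in sex-linked genes, as cells of a male and a female mouse do, and the duplicates of each inhibitor did not. The spread within DMSO is therefore not of the same kind as that within the inhibitor groups, and the fitted spread combines both. The duplicates of DMSO differed by over 2-fold in 19.3% of tested genes, against 3.42% to 6.07% in the inhibitor groups. DMSO replicate 2 also had the lowest level of all 10 libraries for 16 of the 27 members tested (59.3%), whereas it was lowest for 20% of all tested genes. Each call of a member against DMSO below is therefore set beside its value without this library or beside the comparison with MM-401. The fold change of that comparison uses no DMSO library, but its adjusted p rests on a spread fitted over all 10 libraries, DMSO included. EPZ5676, MI-2-2 and iBET against MM-401 called 33.3%, 35.7% and 11.4% of genes in this fit. With only the 2 groups compared in the fit, the shares were 45.6%, 51.4% and 35.0%.

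The promoters of the genes that the results turn on are printed first, because class I and class II promoters share known elements. Each is 250 bases before and 50 bases from the RefSeq start site in GRCm38.p6, 5′ to 3′ on the strand of the gene. Capitals mark matches, on either strand, to 5 patterns of letters: the interferon-stimulated response element core TTTCNNTTC, the kappa B site GGGNNTTCC, the interferon gamma-activated site TTCNNNGAA, the Y box ATTGG and the X2 box TGACG. The complex lies on chromosome 17 and B2m on chromosome 2.
H2-K1 (first of its 2 windows), chr17:34000298-34000597, minus strand: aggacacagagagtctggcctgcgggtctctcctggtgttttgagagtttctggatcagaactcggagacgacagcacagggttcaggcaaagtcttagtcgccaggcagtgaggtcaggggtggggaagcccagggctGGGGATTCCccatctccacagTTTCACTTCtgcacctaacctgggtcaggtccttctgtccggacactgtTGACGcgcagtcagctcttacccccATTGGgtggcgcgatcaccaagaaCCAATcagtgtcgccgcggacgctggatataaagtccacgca
H2-D1, chr17:35262844-35263143, plus strand: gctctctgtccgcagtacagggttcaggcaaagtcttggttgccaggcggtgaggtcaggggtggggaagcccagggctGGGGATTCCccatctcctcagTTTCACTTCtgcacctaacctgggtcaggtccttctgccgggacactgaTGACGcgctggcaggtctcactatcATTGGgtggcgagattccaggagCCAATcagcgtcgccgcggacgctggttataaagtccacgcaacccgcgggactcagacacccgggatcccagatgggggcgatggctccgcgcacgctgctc
H2-T23, chr17:36032652-36032951, minus strand: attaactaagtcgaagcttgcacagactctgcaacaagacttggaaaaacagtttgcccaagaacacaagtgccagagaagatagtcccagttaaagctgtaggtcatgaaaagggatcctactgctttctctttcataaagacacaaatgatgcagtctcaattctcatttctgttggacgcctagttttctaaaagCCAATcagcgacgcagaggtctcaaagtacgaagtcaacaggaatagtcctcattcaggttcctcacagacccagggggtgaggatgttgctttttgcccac
B2m, chr2:122147437-122147736, plus strand: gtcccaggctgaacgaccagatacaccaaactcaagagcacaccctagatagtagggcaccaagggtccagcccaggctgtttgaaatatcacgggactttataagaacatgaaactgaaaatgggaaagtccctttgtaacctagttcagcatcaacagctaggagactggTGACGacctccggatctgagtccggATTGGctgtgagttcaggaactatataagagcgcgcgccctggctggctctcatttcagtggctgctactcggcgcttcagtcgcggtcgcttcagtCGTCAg
Psmb9, chr17:34187281-34187580, minus strand: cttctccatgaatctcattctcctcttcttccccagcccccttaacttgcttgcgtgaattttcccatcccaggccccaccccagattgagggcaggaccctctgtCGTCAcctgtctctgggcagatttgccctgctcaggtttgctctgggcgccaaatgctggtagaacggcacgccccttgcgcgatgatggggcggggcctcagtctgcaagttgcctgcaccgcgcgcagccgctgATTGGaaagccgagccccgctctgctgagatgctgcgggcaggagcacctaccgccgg
H2-Aa, chr17:34287774-34288073, minus strand: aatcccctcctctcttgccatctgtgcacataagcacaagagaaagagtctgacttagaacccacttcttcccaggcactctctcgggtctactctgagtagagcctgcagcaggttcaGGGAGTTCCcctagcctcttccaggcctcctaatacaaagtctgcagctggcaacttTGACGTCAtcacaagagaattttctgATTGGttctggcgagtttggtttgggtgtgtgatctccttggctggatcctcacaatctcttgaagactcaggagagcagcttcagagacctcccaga
The windows of the classical heavy chains H2-K1 and H2-D1 held the same order of matches. These were a kappa B site, the interferon element, the X2 box and a pair of Y boxes. The window of H2-T23 held a single Y box and none of the other patterns as spelled above. Other spellings of the interferon element were not searched. The lack of a match, as in H2-T23 and B2m, therefore does not show that a window lacks this element. Psmb9 and Tap1 are divergent neighbours whose start sites lie 226 bases apart, so that their windows share 275 bases. In the window of H2-Aa the X2 box lies within a palindrome and was matched on both strands. RefSeq had 43 windows for 39 members. Of these windows 34 held the Y box (37.4% of all 32851 promoter windows) and 18 the X2 box (20.8%). The form TTTCNNTTC of the interferon element was in 9 (7.52%), the kappa B site in 9 (5.82%) and the gamma-activated site in 4 (8.3%). A match of letters is a description of the sequence and was not tested for binding.

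Of the 56 members, 27 passed the filter on low counts and were tested, 15 had reads but fell under the filter, and 14 had no read in any library. Class I was expressed throughout. All 7 partners and 9 of the 32 heavy chains were tested, 10 heavy chains were under the filter with at most 14 reads in a library, and 13 had no read. The 13 were H2-L, H2-Q6, H2-Q7, H2-Q8, H2-Q9, H2-T9, H2-M1, H2-M9, H2-M10.3, H2-M10.4, H2-M10.5, H2-M10.6 and H2-M11. H2-L is absent from the C57BL/6 haplotype, whereas H2-Q7 belongs to a group of near-identical copies, and only 73.5% of the 50-base windows of its GENCODE M21 transcripts were found in no other gene. How reads that match several genes were counted is not given in the sources, so a count of 0 for the Q genes cannot be told apart from reads left out as ambiguous.

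Values are given as reads per 1000000 after TMM scaling of the library sizes (TMM CPM), in the order replicate 1 and replicate 2. A gene was called when its adjusted p in the edgeR quasi-likelihood test, over the 12971 genes tested, was below 0.05. EPZ5676 against DMSO called 13 of the 27 members (10 higher, 3 lower), where 38.1% of all tested genes were called (18.7% higher, 19.4% lower). MI-2-2 against DMSO called 13 members (11 higher, 2 lower), where 41.4% of genes were called (20.2% higher, 21.2% lower). iBET against DMSO called 7 members, all higher, where 13.9% of genes were called (6.38% higher, 7.54% lower). MM-401 against DMSO called no member by edgeR and 0.0% of genes. There 2 members lay under 0.05 before adjustment, and DESeq2 called 1 member and 2.38% of genes. The shares of members called were 48.1%, 48.1%, 25.9% and 0.0% for EPZ5676, MI-2-2, iBET and MM-401.

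**Figure D1:**
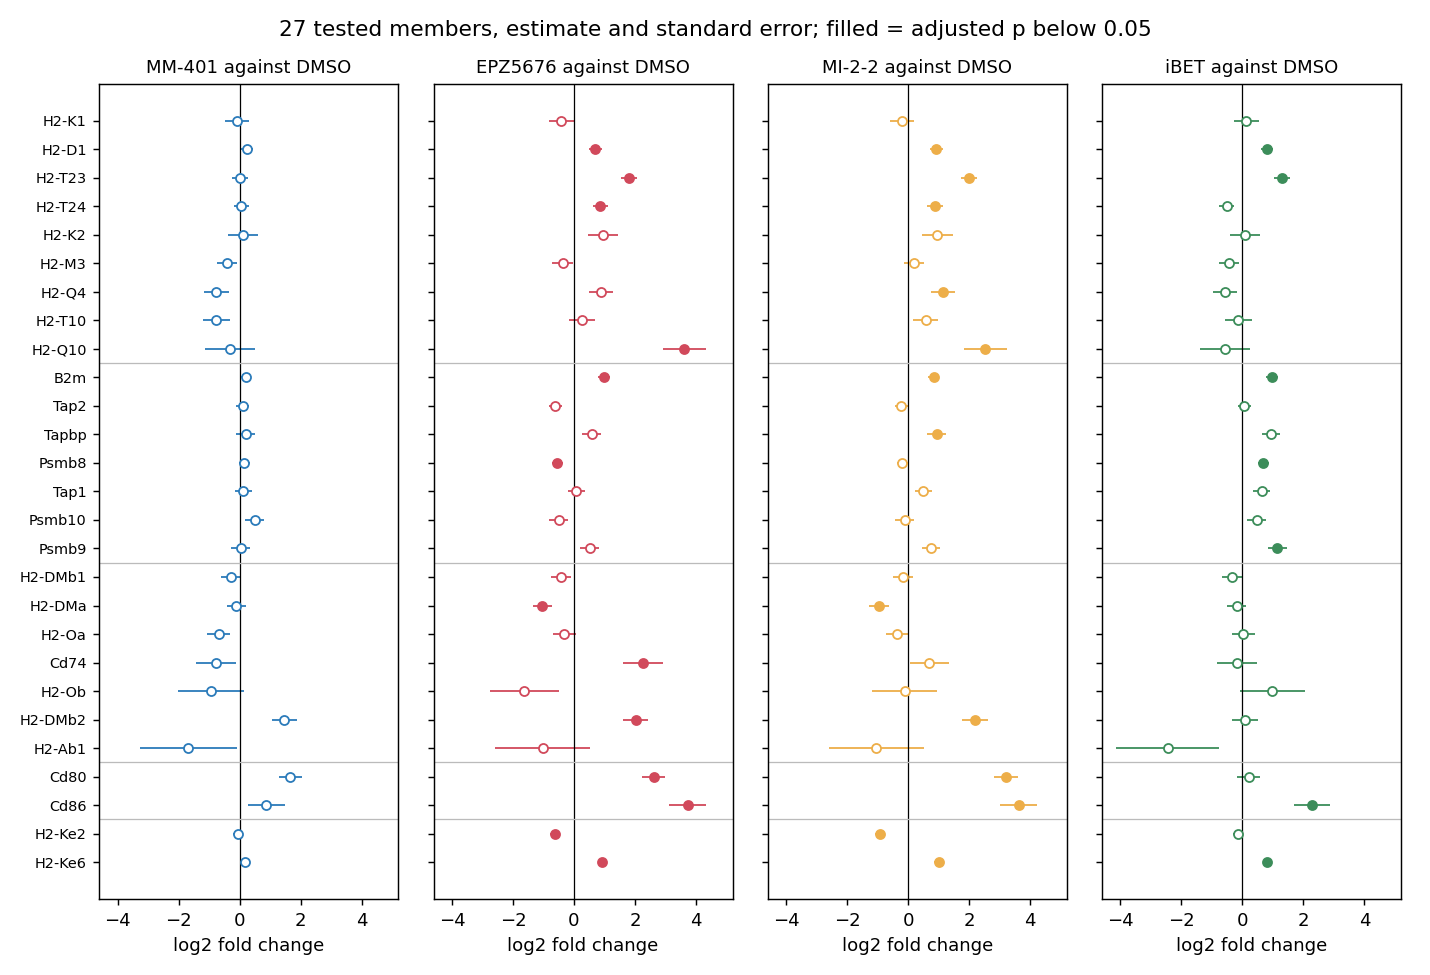
Log2 fold change of the 27 tested members for each inhibitor against DMSO (points, with standard errors as bars; filled points have an adjusted p below 0.05), ordered as class I heavy chains, class I partners, class II genes, costimulatory ligands and genes of neither class. H2-T23 lies between 1.29 and 1.99 with EPZ5676, MI-2-2 and iBET and at 0.00 with MM-401, and H2-K1 has open points in all 4 panels.

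Against MM-401, the calls were 12 members for EPZ5676 (8 higher, 4 lower; 33.3% of all genes called, 16.7% higher and 16.6% lower), 11 for MI-2-2 (10 higher, 1 lower; 35.7% of genes, 18.0% higher and 17.6% lower) and 4 for iBET (3 higher, 1 lower; 11.4% of genes, 5.48% higher and 5.96% lower). EPZ5676 against MI-2-2 called no member by edgeR and 0.0154% of genes (0.00771% higher, 0.00771% lower). Before adjustment 1 member, Cd74, lay under 0.05, and DESeq2 called none. The comparisons with DMSO share their control libraries, as do those with MM-401, so their counts are not independent.

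The summed level of macrophage markers differed between the conditions. For Csf1r, Emr1, Fcgr1, Mertk, Cd68 and Itgam it was 350 to 559 TMM CPM in DMSO and 756 to 898 with MM-401. It was 2120 to 2830 with EPZ5676, 2400 to 3190 with MI-2-2 and 374 to 385 with iBET. Itgam made up most of this sum, with 12354 and 5813 reads in DMSO and 38390 and 53810 with EPZ5676. The markers did not all follow the sum. Fcgr1, at 1 and 172 reads in DMSO, overlapped with EPZ5676 (131 and 253) and MI-2-2 (67 and 222), where the others were higher. Mertk had 39 and 94 reads with iBET, against 18 and 7 in DMSO. The summed level of the myeloid progenitor markers Kit, Cd34, Mpo, Elane, Prtn3 and Ctsg was 9210 to 12700 in DMSO and 10100 to 10400 with MM-401. It was 2810 to 3050 with EPZ5676, 1800 to 2450 with MI-2-2 and 5390 to 6210 with iBET. All 6 had reads in every group, but they did not move alike. Kit had 1179 and 3757 reads in DMSO, 2859 and 2365 with EPZ5676 and 1905 and 2271 with MI-2-2. With iBET, Ctsg had 81323 and 90037 reads, against 67824 and 25570 in DMSO. Mpo had 330 and 422 reads with iBET, against 9913 and 100486 in DMSO. In these bulk libraries more cells of a type and more RNA per cell cannot be told apart, and the part of such a shift in the changes of class I, class II and costimulatory genes was not tested. The 8 dendritic cell markers summed to at most 5.43 TMM CPM in any library, of which Siglech had no read in DMSO, MM-401, EPZ5676 and iBET. Of the 6 B cell markers, summing to at most 8.24, Ms4a1, Pax5 and Ebf1 had no read anywhere. The 6 T cell markers summed to at most 2.05, with Cd3e, Cd8a and Cd8b1 at 0. The 5 natural killer cell markers summed to at most 4.85 apart from DMSO replicate 2, where Nkg7 brought them to 65.8. The 5 mast cell and basophil markers summed to 7.37 to 20.4.

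Among the class I heavy chains, H2-T23, H2-D1 and H2-T24 rose with EPZ5676 and MI-2-2, H2-T23 and H2-D1 also rose with iBET, and H2-K1, the most abundant heavy chain, passed the test in none of the 8 comparisons. Of the 9 heavy chains tested, EPZ5676, MI-2-2 and iBET called 4, 5 and 2 higher against DMSO, and none lower. Beside these, 18.7%, 20.2% and 6.38% of all tested genes were called higher and 19.4%, 21.2% and 7.54% lower. The median log2 fold changes of the heavy chains were 0.87, 0.92, -0.13 and -0.09 for EPZ5676, MI-2-2, iBET and MM-401, beside -0.06, -0.05, -0.04 and -0.01 over all tested genes.

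H2-T23 encodes the nonclassical molecule Qa-1, which presents leader peptides of other class I chains to the inhibitory receptor NKG2A of natural killer and T cells. Its level was 28.3 and 15.8 TMM CPM in DMSO, 22.9 and 21.5 with MM-401, 67.3 and 88.2 with EPZ5676, 87.1 and 88.2 with MI-2-2 and 56.4 and 51.8 with iBET. The 6 libraries of EPZ5676, MI-2-2 and iBET lay above the 4 of DMSO and MM-401. The log2 fold change against DMSO was 1.81 ± 0.26 with EPZ5676 (SE; adjusted p = 0.00191), 1.99 ± 0.26 with MI-2-2 (adjusted p = 0.0013) and 1.29 ± 0.26 with iBET (adjusted p = 0.0182). Against MM-401 it was 1.81, 1.98 and 1.29 with adjusted p = 0.00256, 0.00201 and 0.0197, and MM-401 itself stood at 0.00 ± 0.26 against DMSO. Without DMSO replicate 2 the values against DMSO were 1.48, 1.66 and 0.93 with adjusted p = 0.00137, 0.000968 and 0.0116. The calls for EPZ5676 and MI-2-2, against DMSO and against MM-401, held under all 16 alternative settings.

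H2-D1 and H2-K1 are the classical heavy chains of C57BL/6 mice, which present peptides to CD8 T cells. H2-D1 stood at 146 and 88.6 TMM CPM in DMSO, 140 and 134 with MM-401, 188 and 193 with EPZ5676, 210 and 234 with MI-2-2 and 214 and 198 with iBET. The DMSO and MM-401 libraries were below all 6 others. It rose against DMSO by 0.70 ± 0.21 log2 units with EPZ5676 (adjusted p = 0.0309), by 0.92 ± 0.21 with MI-2-2 (adjusted p = 0.0101) and by 0.81 ± 0.21 with iBET (adjusted p = 0.0406). Without DMSO replicate 2 these were 0.41, 0.64 and 0.50. Against MM-401 the values were 0.48, 0.70 and 0.59, of which MI-2-2 was called (adjusted p = 0.111, 0.0335 and 0.111). With only the 2 groups compared in the fit, EPZ5676 and iBET were also called against MM-401 (adjusted p = 0.0122 and 0.00435). Under that fit each call of H2-D1 against DMSO was lost.

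H2-K1 stood at 529 and 217 TMM CPM in DMSO, 412 and 289 with MM-401, 316 and 245 with EPZ5676, 381 and 266 with MI-2-2 and 457 and 362 with iBET. Its DMSO libraries were the highest and the lowest of the 10, so that every group lay within the span of the control. The log2 fold changes against DMSO were -0.41 ± 0.40 with EPZ5676, -0.20 ± 0.40 with MI-2-2, 0.13 ± 0.40 with iBET and -0.09 ± 0.40 with MM-401, with adjusted p = 0.443, 0.704, 0.849 and 0.958. With DMSO replicate 1 or 2 left out in turn and under the other alternatives, the estimate for EPZ5676 ran from -0.89 to 0.37. Replicate 1 exceeded replicate 2 in all 5 groups.

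**Figure D2:**
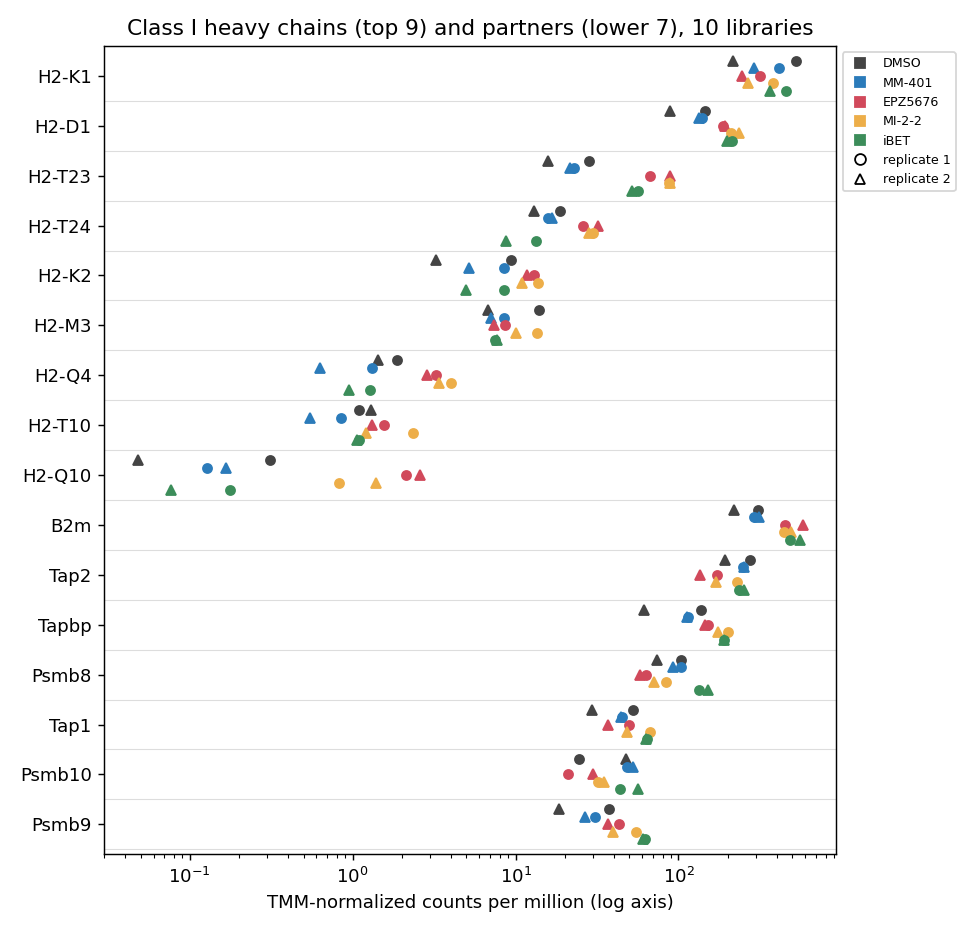
TMM CPM (log axis) of the 9 tested class I heavy chains and the 7 class I partners in each of the 10 libraries; colours are the 5 conditions, circles replicate 1 and triangles replicate 2, and rows in each part run from the highest to the lowest median. The H2-T23 points of EPZ5676, MI-2-2 and iBET lie right of all DMSO and MM-401 points, whereas the H2-K1 points of DMSO, 529 and 217, enclose all others.

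A ratio of reads within a library does not depend on its scaling. The ratio of H2-D1 to H2-K1 reads was 0.276 and 0.408 in DMSO, 0.339 and 0.466 with MM-401, 0.597 and 0.788 with EPZ5676, 0.551 and 0.88 with MI-2-2 and 0.468 and 0.547 with iBET. The 6 libraries of EPZ5676, MI-2-2 and iBET exceeded the 4 others. For EPZ5676, MI-2-2 and iBET the mean log2 ratio was 1.03, 1.05 and 0.59 above DMSO. Each of these had a two-sided exact permutation p = 0.333, the smallest that 2 libraries against 2 can give. The ratio of H2-T23 to H2-K1 reads was 0.0536 and 0.0727 in DMSO, 0.0555 and 0.0744 with MM-401, 0.213 and 0.36 with EPZ5676, 0.228 and 0.332 with MI-2-2 and 0.123 and 0.143 with iBET. H2-K1 accordingly made up 70.6% and 62.4% of the heavy chain reads in DMSO, 67.5% and 60.7% with MM-401, 50.4% and 41.9% with EPZ5676, 51.2% and 41.3% with MI-2-2 and 60.1% and 56.9% with iBET. These ratios show unequal change between the genes and not which of them changed. The 50-base windows found in no other gene were 90.4% for H2-K1, 87.2% for H2-D1 and 85.5% for H2-T23.

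**Figure D3:**
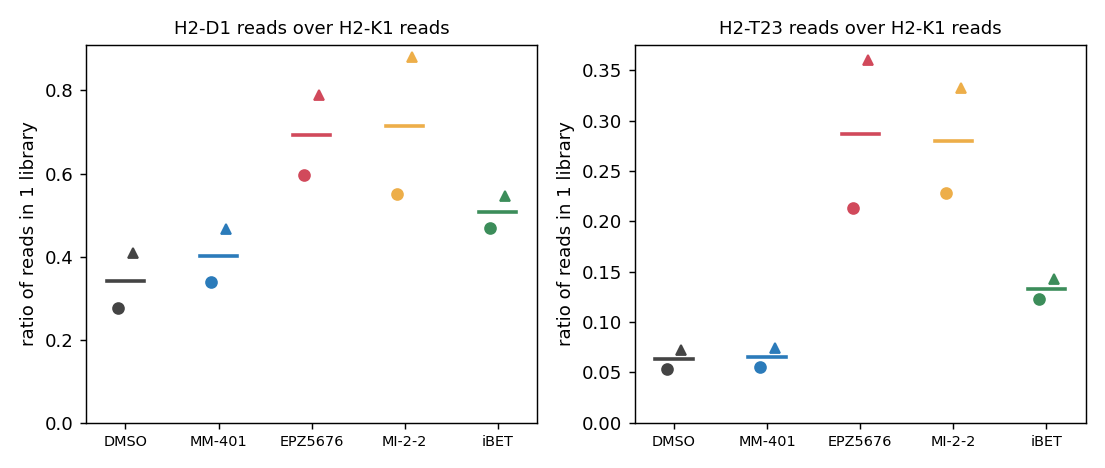
Reads of H2-D1 (left) and H2-T23 (right) divided by reads of H2-K1 in the same library; points are the 2 libraries of each condition, circles replicate 1 and triangles replicate 2, and bars their mean. The lowest H2-D1 ratio with EPZ5676, MI-2-2 or iBET, 0.468, lies above 0.466, the highest with DMSO or MM-401, and the H2-T23 ratios of the same groups lie at 0.123 to 0.36 against 0.0536 to 0.0744.

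Among the less abundant heavy chains, H2-T24 was at 18.7 and 12.9 TMM CPM in DMSO, 15.9 and 16.7 with MM-401, 25.9 and 31.9 with EPZ5676, 30.0 and 28.3 with MI-2-2 and 13.3 and 8.69 with iBET. EPZ5676 and MI-2-2 lay above the other 3 groups. It rose by 0.87 ± 0.26 with EPZ5676 (adjusted p = 0.0295) and by 0.88 ± 0.26 with MI-2-2 (adjusted p = 0.026) against DMSO, but without DMSO replicate 2 the adjusted p was 0.0875 and 0.0766. Against MM-401 it rose by 0.82 and 0.84 (adjusted p = 0.04 and 0.0357).

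H2-Q10 encodes a secreted class I molecule known from the liver. It had 8 and 1 reads in DMSO, 3 and 4 with MM-401, 44 and 55 with EPZ5676, 19 and 38 with MI-2-2 and 4 and 2 with iBET, so both groups that were high were still low in absolute terms. Against DMSO it rose by 3.62 ± 0.70 with EPZ5676 (adjusted p = 0.0059) and by 2.53 ± 0.70 with MI-2-2 (adjusted p = 0.0214), and against MM-401 by 3.95 and 2.87 (adjusted p = 0.00578 and 0.0177). The values against DMSO were 5.48 and 4.39 without DMSO replicate 1 and 2.93 and 1.85 without DMSO replicate 2, and the MI-2-2 call was lost without MI-2-2 replicate 2. Since 14.0% of its 50-base windows also occur in H2-Q7, the source of these few reads is uncertain. H2-Q4, another low gene of the Q region, had 48 and 30 reads in DMSO, 31 and 15 with MM-401, 67 and 61 with EPZ5676, 92 and 93 with MI-2-2 and 29 and 25 with iBET. It rose with MI-2-2 against DMSO (1.15 ± 0.40, adjusted p = 0.0483; 0.118 without DMSO replicate 2) and with EPZ5676 and MI-2-2 against MM-401 (1.65 and 1.92, adjusted p = 0.0183 and 0.00969). H2-T10 had 28 and 27 reads in DMSO, 20 and 13 with MM-401, 32 and 28 with EPZ5676, 54 and 33 with MI-2-2 and 25 and 28 with iBET. It was called in 1 comparison, MI-2-2 against MM-401 (1.34 ± 0.44, adjusted p = 0.0452), and shares 31.7% of its windows with H2-T22. H2-K2 and H2-M3, of which H2-M3 presents formylated peptides, lay between 3.26 and 13.9 TMM CPM and were called nowhere.

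Among the partners of class I, B2m rose with EPZ5676, MI-2-2 and iBET, whereas the calls differed between the genes of peptide supply. Psmb8 was called lower with EPZ5676 and higher with iBET, Psmb9 higher with iBET and Tapbp higher with MI-2-2. Tap1 was called nowhere in this fit. These calls against DMSO held under 4 to 6 of the 16 alternatives. With iBET the estimates of the peptide supply genes were all positive against DMSO, from 0.06 for Tap2 to 1.14 for Psmb9. Against DMSO, 1 of the 7 partners was called higher and 1 lower with EPZ5676, 2 higher with MI-2-2 and 3 higher with iBET, beside 38.1%, 41.4% and 13.9% of all genes called in either direction. Their median log2 fold changes were 0.07, 0.49 and 0.69, and 0.15 with MM-401, beside -0.06, -0.05, -0.04 and -0.01 over all tested genes.

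B2m, the light chain of every class I molecule, was at 307 and 220 TMM CPM in DMSO, 289 and 312 with MM-401, 451 and 582 with EPZ5676, 445 and 489 with MI-2-2 and 484 and 558 with iBET. All 6 libraries of EPZ5676, MI-2-2 and iBET lay above the DMSO and MM-401 libraries. The rise against DMSO was 0.97 ± 0.20 with EPZ5676 (adjusted p = 0.0072), 0.83 ± 0.20 with MI-2-2 (adjusted p = 0.0123) and 0.98 ± 0.20 with iBET (adjusted p = 0.0187). Without DMSO replicate 2 it was 0.77, 0.64 and 0.76, with adjusted p = 0.0139, 0.0254 and 0.0235. Against MM-401 it was 0.78, 0.64 and 0.80, with adjusted p = 0.019, 0.0371 and 0.0399. No 50-base window of B2m occurs in another gene.

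Psmb8, Psmb9 and Psmb10 encode the catalytic subunits that convert the proteasome to the immunoproteasome, in place of Psmb5, Psmb6 and Psmb7. Psmb8 was at 103 and 73.3 TMM CPM in DMSO, 104 and 92.0 with MM-401, 63.4 and 57.9 with EPZ5676, 83.9 and 70.3 with MI-2-2 and 133 and 152 with iBET. The iBET libraries were the highest and the EPZ5676 libraries the lowest of the 10. Psmb8 fell by 0.54 ± 0.18 with EPZ5676 against DMSO (adjusted p = 0.0466), though it passed in only 4 of the 16 alternatives (-0.27 with adjusted p = 0.181 without DMSO replicate 1), and fell by 0.69 ± 0.18 against MM-401 (adjusted p = 0.0227). It rose by 0.69 ± 0.18 with iBET against DMSO (adjusted p = 0.0436), a call lost without DMSO replicate 2, at 0.46. The value against MM-401 was 0.54 with adjusted p = 0.0965. With only the 2 groups compared in the fit, the adjusted p against MM-401 was 0.0101 and the iBET call against DMSO was lost. The ratio of Psmb8 to Psmb5 reads was 1.66 and 1.22 in DMSO, 1.33 and 0.97 with EPZ5676 and 2.58 and 2.78 with iBET. EPZ5676 and iBET were not tested against each other.

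Psmb9 was at 37.3 and 18.4 TMM CPM in DMSO, 30.6 and 26.5 with MM-401, 43.2 and 36.9 with EPZ5676, 54.5 and 39.7 with MI-2-2 and 62.4 and 60.5 with iBET. It rose with iBET against DMSO by 1.14 ± 0.31 (adjusted p = 0.0467), a call lost without DMSO replicate 2, at 0.72. The value against MM-401 was 1.11 with adjusted p = 0.0565. With only the 2 groups compared in the fit, the adjusted p against MM-401 was 0.00149 and the call against DMSO was lost. Psmb10 was at 24.6 and 47.6 TMM CPM in DMSO, 48.6 and 52.4 with MM-401, 21.0 and 29.9 with EPZ5676, 32.0 and 34.9 with MI-2-2 and 43.5 and 56.5 with iBET. It was called with EPZ5676 against MM-401 only, where it fell by 0.99 ± 0.31 (adjusted p = 0.042). The iBET libraries were thus the highest of the 10 for Psmb8 and Psmb9, and for Psmb10 they overlapped with DMSO and MM-401.

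Tap1 and Tap2 form the transporter that carries peptides into the endoplasmic reticulum, where tapasin (Tapbp) bridges it to the empty class I molecule. Tap1 was at 52.6 and 29.6 TMM CPM in DMSO, 45.1 and 44.6 with MM-401, 49.8 and 36.9 with EPZ5676, 66.8 and 48.5 with MI-2-2 and 64.4 and 62.8 with iBET. Its groups overlapped with DMSO except for iBET, at 0.63 ± 0.28 (adjusted p = 0.163). Tap2 was at 275 and 194 TMM CPM in DMSO, 250 and 251 with MM-401, 172 and 136 with EPZ5676, 228 and 171 with MI-2-2 and 236 and 252 with iBET. It was lowest with EPZ5676, at -0.61 ± 0.21 against DMSO (adjusted p = 0.052), and fell by 0.70 ± 0.21 against MM-401 (adjusted p = 0.035). Tapbp was at 137 and 61.7 TMM CPM in DMSO, 114 and 113 with MM-401, 152 and 146 with EPZ5676, 201 and 176 with MI-2-2 and 191 and 191 with iBET. It rose with MI-2-2 against DMSO (0.93 ± 0.30, adjusted p = 0.041), or by 0.50 without DMSO replicate 2. That call held under 6 of the 16 alternatives, and MI-2-2 against MM-401 gave 0.73 (adjusted p = 0.0927). With iBET against DMSO, at 0.94 ± 0.30, the adjusted p was 0.0765 by edgeR, and DESeq2 called it (0.93, adjusted p = 0.021). Without DMSO replicate 2 the edgeR value was 0.48. With only the 2 groups compared in the edgeR fit, iBET was called against MM-401 (0.75, adjusted p = 0.00164). Of the windows of Tapbp, 20.3% are shared with the gene model Gm19412.

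Per kilobase of annotated exon, B2m had the highest median level of the members, 520 TMM CPM per kilobase. The lengths merge the exons of every annotated transcript, such as 860 bases for B2m, 3660 for Psmb9 and 5476 for Tap1. They can exceed the transcript expressed, and the annotation used for counting is not known. The order of the genes is therefore approximate. Of the other class I genes, H2-K1 was at 115, H2-D1 at 74.0, Tap2 at 61.4, Tapbp at 41.1, Psmb8 at 26.0 and H2-T23 at 18.7. The span of B2m over the libraries, 256 to 677, did not meet that of H2-K1, 73.9 to 180, which overlapped with that of H2-D1, 34.4 to 90.7. With MI-2-2 replicate 2 the levels of H2-D1 and H2-K1 were 90.7 and 90.5. Of the class II genes, H2-DMb1 was at 15.9, between H2-T23 and Psmb9 (10.5), with H2-DMa at 7.02, Cd74 at 1.39 and H2-Ab1 at 0.193.

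The class II chains that present peptide had at most 105 reads in a library in any condition, and the changes called were in the peptide editors and the invariant chain: H2-DMa fell and H2-DMb2 rose with EPZ5676 and MI-2-2, and Cd74 rose with EPZ5676. Of 12 class II genes, 7 were tested, H2-Ea-ps, a pseudogene in this strain, had no read, and Ciita, H2-Aa, H2-Eb1 and H2-Eb2 were under the filter. Of the 7 tested, 2 were called higher and 1 lower with EPZ5676 against DMSO, 1 higher and 1 lower with MI-2-2, and none with iBET or MM-401. For EPZ5676, MI-2-2, iBET and MM-401 these were 42.9%, 28.6%, 0.0% and 0.0%, beside 38.1%, 41.4%, 13.9% and 0.0% of all tested genes. Before adjustment, 0 and 1 of the 7 lay under 0.05 with iBET and MM-401. In the same order the medians were -0.42, -0.17, -0.18 and -0.69, beside -0.06, -0.05, -0.04 and -0.01 over all tested genes.

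Ciita, the coactivator that controls class II expression, had 0 and 0 reads in DMSO, 1 and 0 with MM-401, 2 and 0 with EPZ5676, 1 and 2 with MI-2-2 and 1 and 3 with iBET. H2-Aa, the alpha chain of I-A, had 4 and 1 reads in DMSO, 1 and 3 with MM-401, 13 and 3 with EPZ5676, 1 and 5 with MI-2-2 and 0 and 0 with iBET, and the beta chain H2-Eb1 had 2 and 0 reads in DMSO, 5 and 2 with MM-401, 2 and 1 with EPZ5676, 3 and 5 with MI-2-2 and 3 and 5 with iBET. At 20394762 to 29473127 reads a library these 3 genes had reads but were under the filter, and no comparison of them was made. H2-Ab1, the beta chain that pairs with H2-Aa, had 105 and 2 reads in DMSO, 28 and 3 with MM-401, 36 and 7 with EPZ5676, 41 and 8 with MI-2-2 and 15 and 3 with iBET. The higher library was replicate 1 in every group, and no adjusted p against DMSO was below 0.349.

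**Figure D4:**
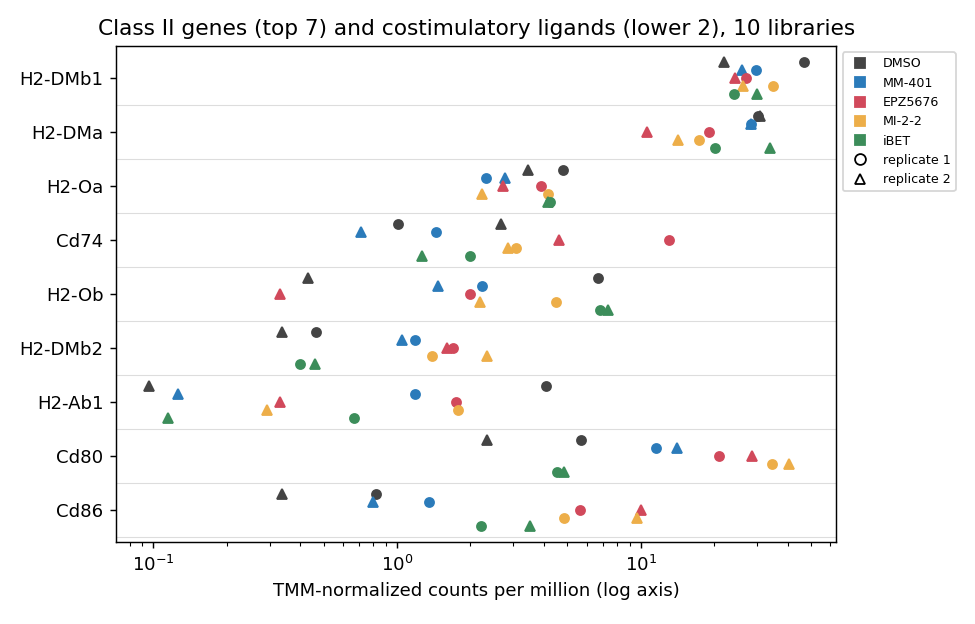
TMM CPM (log axis) of the 7 tested class II genes and of Cd80 and Cd86 in each of the 10 libraries; colours are the 5 conditions, circles replicate 1 and triangles replicate 2. H2-Ab1 separates by replicate number, from 0.0959 to 4.09, whereas Cd80 and Cd86 separate by condition, with EPZ5676 and MI-2-2 highest.

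Cd74, the invariant chain that guides class II molecules to the endosome and also occurs without them, was at 1.01 and 2.68 TMM CPM in DMSO, 1.44 and 0.714 with MM-401, 13.1 and 4.61 with EPZ5676, 3.08 and 2.85 with MI-2-2 and 1.99 and 1.26 with iBET. EPZ5676 replicate 1 was the highest library and its duplicate the next. Cd74 rose with EPZ5676 by 2.27 ± 0.65 against DMSO (adjusted p = 0.0274) and by 3.04 ± 0.68 against MM-401 (adjusted p = 0.0123), and without EPZ5676 replicate 1, or without DMSO replicate 1 (1.73, adjusted p = 0.0679), the call against DMSO was lost. MI-2-2 stood at 0.69 ± 0.64 against DMSO (adjusted p = 0.413). EPZ5676 against MI-2-2 gave 1.58 ± 0.63 with an unadjusted p = 0.0365 and an adjusted p = 0.656 by edgeR.

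H2-DM, a dimer of H2-DMa with H2-DMb1 or H2-DMb2, exchanges the invariant chain peptide for antigen. H2-DMa was at 30.3 and 30.9 TMM CPM in DMSO, 28.3 and 28.4 with MM-401, 19.0 and 10.6 with EPZ5676, 17.3 and 14.2 with MI-2-2 and 20.1 and 33.9 with iBET. It fell by 1.04 ± 0.32 with EPZ5676 (adjusted p = 0.0342) and by 0.96 ± 0.32 with MI-2-2 (adjusted p = 0.0419) against DMSO. Without DMSO replicate 2 the values were -1.0 and -0.91 with adjusted p = 0.0739 and 0.094, and against MM-401 -0.93 and -0.85 with adjusted p = 0.0545 and 0.0689. H2-DMb1 was at 46.6 and 22.0 TMM CPM in DMSO, 29.7 and 26.1 with MM-401, 27.1 and 24.3 with EPZ5676, 34.9 and 26.2 with MI-2-2 and 24.2 and 30.0 with iBET and was called nowhere. H2-DMb2 had 12 and 7 reads in DMSO, 28 and 25 with MM-401, 35 and 34 with EPZ5676, 32 and 64 with MI-2-2 and 9 and 12 with iBET. It rose against DMSO by 2.02 ± 0.42 with EPZ5676 (adjusted p = 0.00772) and by 2.19 ± 0.41 with MI-2-2 (adjusted p = 0.00507). MM-401 stood at 1.46 ± 0.42 against DMSO, with an unadjusted p = 0.00823 and an adjusted p = 0.316 by edgeR, and against MM-401 neither EPZ5676 (0.56, adjusted p = 0.29) nor MI-2-2 (0.74, adjusted p = 0.164) passed. Since 21.2% of the 50-base windows of H2-DMb2 occur in H2-DMb1 and the ratio of H2-DMb2 to H2-DMb1 reads was 0.01 to 0.0891, the assignment of these reads is uncertain.

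H2-Oa and H2-Ob form H2-O, which restrains H2-DM. H2-Oa was at 4.79 and 3.45 TMM CPM in DMSO, 2.32 and 2.77 with MM-401, 3.88 and 2.73 with EPZ5676, 4.16 and 2.23 with MI-2-2 and 4.24 and 4.17 with iBET, with all groups within 2.23 to 4.79. H2-Ob was at 6.7 and 0.431 TMM CPM in DMSO, 2.24 and 1.47 with MM-401, 1.99 and 0.33 with EPZ5676, 4.47 and 2.19 with MI-2-2 and 6.81 and 7.35 with iBET. The DMSO duplicates of H2-Ob differed from each other by more than any other pair, and no comparison was called for either gene in the main fit. For H2-Ob, iBET against MM-401 gave 1.93 (adjusted p = 0.298 by edgeR). With only the 2 groups compared in the fit this was called (adjusted p = 0.00373), where 35.0% of genes were called. Against DMSO the iBET value ran from 0.08 to 4.02 over the alternatives.

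Both Cd80 and Cd86, the costimulatory ligands of CD28 and CTLA-4, rose with EPZ5676 and MI-2-2, whereas Cd40 had 0 to 2 reads in a library. Cd80 was at 5.69 and 2.35 TMM CPM in DMSO, 11.6 and 14.1 with MM-401, 20.9 and 28.6 with EPZ5676, 34.5 and 40.5 with MI-2-2 and 4.55 and 4.82 with iBET. The EPZ5676 and MI-2-2 libraries lay above all others, MM-401 lay between them and the rest, and iBET lay within the span of DMSO. Cd80 rose against DMSO by 2.61 ± 0.38 with EPZ5676 (adjusted p = 0.00208) and by 3.21 ± 0.39 with MI-2-2 (adjusted p = 0.00102), and both calls held under all 16 alternatives. Against MM-401 it rose with MI-2-2 (1.55, adjusted p = 0.0138), stood at 0.95 with EPZ5676 (adjusted p = 0.0752) and fell by 1.45 with iBET (adjusted p = 0.044). MM-401 against DMSO gave 1.66 ± 0.37 with an unadjusted p = 0.00216 and an adjusted p = 0.273 by edgeR, whereas DESeq2 called it (1.67, adjusted p = 0.00226), as did edgeR without DMSO replicate 1 (2.45, adjusted p = 0.00296).

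Cd86 was at 0.818 and 0.336 TMM CPM in DMSO, 1.35 and 0.798 with MM-401, 5.63 and 10.0 with EPZ5676, 4.86 and 9.61 with MI-2-2 and 2.21 and 3.52 with iBET. All EPZ5676, MI-2-2 and iBET libraries lay above those of DMSO and MM-401. The rise against DMSO was 3.73 ± 0.61 with EPZ5676 (adjusted p = 0.00305), 3.62 ± 0.61 with MI-2-2 (adjusted p = 0.00316) and 2.28 ± 0.59 with iBET (adjusted p = 0.042). The first 2 held under all 16 alternatives, and that with iBET held under 6 (1.80, adjusted p = 0.0841, without DMSO replicate 2). Against MM-401 the values were 2.86 and 2.75 for EPZ5676 and MI-2-2 (adjusted p = 0.00847 and 0.00885) and 1.41 for iBET (adjusted p = 0.149). Cd86 and Cd80 thus did not move alike with iBET, and the ratio of Cd86 to Cd80 reads was 0.144 and 0.143 in DMSO and 0.485 and 0.73 with iBET.

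H2-Ke6, a dehydrogenase, and H2-Ke2, a subunit of the prefoldin chaperone, carry H2 names by position alone. H2-Ke6 was at 30.0 and 23.3 TMM CPM in DMSO, 27.4 and 32.2 with MM-401, 48.7 and 53.2 with EPZ5676, 52.3 and 54.8 with MI-2-2 and 48.7 and 45.7 with iBET. It rose against DMSO by 0.93, 1.00 and 0.82 with EPZ5676, MI-2-2 and iBET (adjusted p = 0.00333, 0.00236 and 0.0155) and against MM-401 by 0.77, 0.84 and 0.66 (adjusted p = 0.00831, 0.00551 and 0.0336). Only 29.5% of its windows were found in no other gene, the rest being shared with the overlapping model Gm20427. H2-Ke2 was at 65.0 and 75.5 TMM CPM in DMSO, 67.5 and 67.8 with MM-401, 39.2 and 52.2 with EPZ5676, 37.1 and 37.2 with MI-2-2 and 58.2 and 68.3 with iBET. It fell by 0.62 with EPZ5676 and by 0.92 with MI-2-2 against DMSO (adjusted p = 0.0187 and 0.00381) and by 0.57 and 0.86 against MM-401 (adjusted p = 0.0297 and 0.00585).

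Across the 10 libraries, the members most like H2-K1 by Pearson's r of log2(TMM CPM + 0.5) were H2-Ob (0.859), H2-DMb1 (0.733) and Tap1 (0.732). For H2-T23 and H2-D1, chosen after their values were seen, those most like H2-T23 were H2-Ke6 (0.976), Cd86 (0.949) and H2-D1 (0.92), and those most like H2-D1 were Tapbp (0.958) and H2-Ke6 (0.942). The libraries share their conditions and the replicate order, and these values are a description.

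Regulators of the complex were read from a list of 18 genes, all tested. With EPZ5676 7 were called higher and 3 lower against DMSO, with MI-2-2 9 higher and 2 lower, with iBET 6 higher and none lower, and with MM-401 none by edgeR. Their median log2 fold changes were 0.51, 0.68, 0.34 and 0.03, beside -0.06, -0.05, -0.04 and -0.01 over all tested genes. Of all tested genes, 18.7%, 20.2%, 6.38% and 0.0% were called higher and 19.4%, 21.2%, 7.54% and 0.0% lower. Nlrc5, the class I coactivator, was at 1.6 and 1.15 TMM CPM in DMSO, 2.49 and 1.55 with MM-401, 5.58 and 6.64 with EPZ5676, 11.1 and 9.72 with MI-2-2 and 0.177 and 0.765 with iBET. It rose by 2.14 ± 0.53 with EPZ5676 and by 2.91 ± 0.54 with MI-2-2 against DMSO (adjusted p = 0.0151 and 0.00456), the first call being lost without EPZ5676 replicate 2, and the iBET libraries were the lowest of the 10. Irf1, which binds the interferon element, was at 40.8 and 15.3 TMM CPM in DMSO, 38.4 and 31.6 with MM-401, 76.0 and 53.1 with EPZ5676, 99.3 and 69.4 with MI-2-2 and 68.5 and 49.1 with iBET and rose with MI-2-2 against DMSO (1.58 ± 0.43, adjusted p = 0.021), by 2.46 without DMSO replicate 1 and by 1.08 without DMSO replicate 2 (adjusted p = 0.00102 and 0.0371). Against MM-401 the value was 1.27 (adjusted p = 0.0508), and without MI-2-2 replicate 1 the call against DMSO was lost. Irf8, its myeloid relative, was at 21.1 and 61.3 TMM CPM in DMSO, 35.2 and 30.8 with MM-401, 33.8 and 29.7 with EPZ5676, 39.3 and 52.3 with MI-2-2 and 132 and 242 with iBET and rose with iBET only among the inhibitors compared with DMSO (2.18 ± 0.48, adjusted p = 0.0247), a call lost without either iBET or either MM-401 library.

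With EPZ5676 and MI-2-2 the receptor chains for interferon gamma moved in opposite directions. Ifngr1, the ligand-binding chain of the receptor, was at 487 and 610 TMM CPM in DMSO, 518 and 547 with MM-401, 223 and 242 with EPZ5676, 288 and 295 with MI-2-2 and 709 and 694 with iBET. It fell by 1.24 with EPZ5676 and by 0.91 with MI-2-2 (adjusted p = 0.000868 and 0.00219), whereas the second chain Ifngr2 rose by 0.93 and 1.04 (adjusted p = 0.00262 and 0.00164). Downstream, the kinase gene Jak2 was at 52.6 and 55.2 TMM CPM in DMSO, 46.5 and 55.2 with MM-401, 152 and 131 with EPZ5676, 161 and 150 with MI-2-2 and 74.4 and 85.5 with iBET and rose by 1.39, 1.53 and 0.57 with EPZ5676, MI-2-2 and iBET (adjusted p = 0.00063, 0.000533 and 0.0314), of which the iBET call was lost without either iBET library. Of the factors of the class II enhanceosome, Rfx5 and Creb1 fell with EPZ5676 by 0.39 and 0.42 (adjusted p = 0.0474 and 0.0478), Creb1 fell with MI-2-2 by 0.56 (adjusted p = 0.016) and Rfxank rose with MI-2-2 by 0.47 (adjusted p = 0.0437), all against DMSO. The 4 values without DMSO replicate 2 were -0.35, -0.24, -0.36 and 0.36, with adjusted p = 0.0961, 0.235, 0.0817 and 0.0998. Against MM-401 the same values were -0.26, -0.13, -0.27 and 0.57 (adjusted p = 0.16, 0.508, 0.175 and 0.0269).

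Of 12 genes of class I peptide supply outside the members, such as the constitutive proteasome subunits and the chaperones of the endoplasmic reticulum, 1 was called lower with EPZ5676 (Calr, which fell by 1.08, adjusted p = 0.0438), 1 lower with MI-2-2 (Canx, which fell by 0.67, adjusted p = 0.028) and 2 higher with iBET (Erap1 at 0.71 and Psme1 at 0.58, adjusted p = 0.0284 and 0.0245; both lost without either iBET library). The calls of Calr (-0.39, adjusted p = 0.232) and Canx (-0.34, adjusted p = 0.11) were lost without DMSO replicate 2. The medians of the list were -0.20, -0.32 and 0.01. Of all tested genes, 38.1%, 41.4% and 13.9% were called in either direction with EPZ5676, MI-2-2 and iBET. Of 12 genes of endosomal processing, EPZ5676, MI-2-2 and iBET called 7, 7 and 4 higher and none lower, with medians of 0.90, 1.19 and 0.86. Of all genes 18.7%, 20.2% and 6.38% were called higher, with medians of -0.06, -0.05 and -0.04. The EPZ5676 calls of Ctsb, Ctsd and Ctsl were lost without DMSO replicate 2, at 0.95, 1.14 and 0.58. That of Ctsd with MI-2-2 was lost without MI-2-2 replicate 2. The iBET calls of Ctsb, Lamp1 and March8 were lost without either iBET library, and that of Ctsl without iBET replicate 2. Ctss, the protease that trims the invariant chain, was at 18.0 and 22.6 TMM CPM in DMSO, 34.6 and 33.9 with MM-401, 140 and 220 with EPZ5676, 111 and 271 with MI-2-2 and 24.9 and 61.5 with iBET and rose by 3.15 with EPZ5676 and by 3.24 with MI-2-2 (adjusted p = 0.00368 and 0.0031). Lgmn, an asparaginyl endopeptidase, was at 0.506 and 1.15 TMM CPM in DMSO, 2.41 and 3.28 with MM-401, 16.8 and 37.9 with EPZ5676, 17.5 and 57.2 with MI-2-2 and 1.37 and 1.72 with iBET and rose by 5.06 and 5.51 (adjusted p = 0.00203 and 0.00148). March1, a ubiquitin ligase that removes class II and CD86 from the surface, was at 2.1 and 1.58 TMM CPM in DMSO, 3.51 and 3.02 with MM-401, 20.2 and 23.7 with EPZ5676, 15.7 and 37.8 with MI-2-2 and 2.17 and 2.33 with iBET and rose by 3.56 and 3.85 (adjusted p = 0.00105 and 0.000827). Ctss and Lgmn, which encode lysosomal proteases, are also usual in macrophages. Whether a shift in cell type had a part in these changes was not tested.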

How the data were processed

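RNA was sequenced from MAF9 cells in 5 conditions with 2 libraries each. The authors deposited raw read counts per gene for 24015 genes. The submitters' processing notes name TopHat2, Subread, DESeq and build mm9, and the annotation, strand setting and treatment of reads matching several genes were not found in the sources used here. Counts were filtered with filterByExpr, scaled by TMM and fitted with glmQLFit of edgeR 4.0.16 under R 4.3.3, taking all 10 libraries together with a term for each condition. Contrasts were tested with glmQLFTest, and p-values were adjusted by Benjamini-Hochberg over 12971 genes in each of 8 comparisons, with a threshold of 0.05. The standard error is the log2 fold change divided by the square root of F. In data simulated for EPZ5676 against DMSO on 12971 genes, 77% of 100 genes changed 4-fold and 26% of 100 changed 2-fold were recovered.

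The members and gene lists were chosen with earlier results of these data known. Values in every library were given for the central class I, class II and costimulatory genes and for every member called in any comparison, and other members by range. Exon lengths and shared 50-base windows came from GENCODE M21 (52 members matched, 1 by synonym), and promoters from RefSeq. No coordinate was taken from mm9. Alternatives were DESeq2 1.42.0, its size factors, total-count scaling, no filter, a replicate block, the 2 groups alone and each library left out. The values of 1 gene of the regulator list are not reported here.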

Additional observations from a re-analysis of the deposited data

How the results depend on the processing

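The 60 calls of single members gave 960 values under 16 alternatives, of which 711 kept direction and call, 249 kept direction with an adjusted p above 0.05, and none changed direction. Fitting only the 2 groups compared left 3, 4 and 0 members called for EPZ5676, MI-2-2 and iBET against DMSO (9.34%, 9.12% and 0% of all genes), and 12 for iBET against MM-401 (35.0% of genes). DESeq2 called 1 member, Cd80, for MM-401 against DMSO (2.38% of genes). Total-count scaling, which moved the median gene to -0.23 for EPZ5676 and -0.20 for MI-2-2 against DMSO, left 4 members for iBET against DMSO and 7 for MI-2-2 against MM-401. The causes were not tested. With 1 library left out, and its lone partner assumed to vary like the other groups, the members called ranged from 8 to 15 for EPZ5676, 6 to 17 for MI-2-2, 0 to 11 for iBET and 0 to 3 for MM-401 against DMSO, from 2 to 17, 3 to 15 and 0 to 9 for EPZ5676, MI-2-2 and iBET against MM-401, and stayed at 0 for EPZ5676 against MI-2-2. Without DMSO replicate 1, MM-401 called 3 (Cd80, Tapbp and H2-D1) and iBET 11 members against DMSO (10.2% and 27.9% of genes); without DMSO replicate 2 the counts for EPZ5676, MI-2-2 and iBET were 14, 10 and 8 (35.5%, 37.6% and 21.6% of genes). Without either iBET library no member was called for iBET in either comparison. Without EPZ5676 replicate 1 the count for EPZ5676 against DMSO was 8, and without MI-2-2 replicate 2 that for MI-2-2 was 6. Leaving out MM-401 replicate 1 or 2 left 3 or 2 calls for EPZ5676, 4 or 3 for MI-2-2 and 0 for iBET against MM-401.

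The replicate numbers are shared between groups by number alone. Same-numbered libraries deviated together in every pair of groups (Pearson r of 0.278 to 0.666 across 12971 genes, which are not independent replicates). With the replicate number as a block the calls were 16, 15, 9 and 0 for EPZ5676, MI-2-2, iBET and MM-401 against DMSO (47.6%, 50.6%, 23.8% and 0% of genes), 12, 13 and 6 for EPZ5676, MI-2-2 and iBET against MM-401 (43.4%, 46.0% and 19.0% of genes) and 0 for EPZ5676 against MI-2-2, and all 60 single calls held. With 2 libraries a group, small changes are often missed, and genes under the filter were not compared.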

Other observations

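Other ligands of T cells were read from a list of 11 genes, of which 10 were tested. Against DMSO 5 were called higher with EPZ5676 and 6 with MI-2-2, none with iBET or MM-401 by edgeR, and none lower, beside 18.7%, 20.2%, 6.38% and 0.0% of all genes called higher. The medians were 0.92, 1.49, -0.11 and 0.21 for EPZ5676, MI-2-2, iBET and MM-401. Cd274, which encodes PD-L1, was at 24.3 and 17.9 TMM CPM in DMSO, 22.3 and 17.2 with MM-401, 37.8 and 21.7 with EPZ5676, 70.5 and 46.1 with MI-2-2 and 10.7 and 9.37 with iBET and rose with MI-2-2 by 1.46 ± 0.32 (adjusted p = 0.00904), a call lost without MI-2-2 replicate 1. Pdcd1lg2, which encodes PD-L2, was at 3.19 and 0.24 TMM CPM in DMSO, 2.2 and 2.44 with MM-401, 12.3 and 9.42 with EPZ5676, 27.7 and 24.8 with MI-2-2 and 0.309 and 0.306 with iBET. It rose by 2.63 with EPZ5676 and by 3.90 with MI-2-2 against DMSO (adjusted p = 0.0316 and 0.00748), whose duplicates lay far apart, and the values were 5.47 and 6.75 without DMSO replicate 1 and 1.79 and 3.07 without DMSO replicate 2. Against MM-401 they were 2.22 and 3.50 (adjusted p = 0.0573 and 0.0125), and the EPZ5676 call was lost when any 1 library other than DMSO was left out. Icosl, the ligand of ICOS, was at 40.5 and 14.1 TMM CPM in DMSO, 29.7 and 29.0 with MM-401, 82.8 and 57.0 with EPZ5676, 84.3 and 73.0 with MI-2-2 and 69.4 and 62.2 with iBET and rose by 1.35 and 1.52 (adjusted p = 0.0354 and 0.0212), or by 2.31 and 2.48 without DMSO replicate 1 and by 0.81 and 0.99 without DMSO replicate 2. Against MM-401 the values were 1.25 and 1.42 (adjusted p = 0.0502 and 0.0312), and against DMSO the EPZ5676 call was lost when any 1 library other than DMSO was left out, and the MI-2-2 call without either MI-2-2 library.

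Of 14 class I-like genes outside the H2 names, 6 were tested, with medians of -0.70, -0.14 and -1.14 for EPZ5676, MI-2-2 and iBET. Mr1, which presents vitamin B metabolites, was at 2.3 and 1.29 TMM CPM in DMSO, 0.972 and 0.42 with MM-401, 5.29 and 4.94 with EPZ5676, 3.77 and 5.52 with MI-2-2 and 0.309 and 0.191 with iBET. It rose by 1.5 with EPZ5676 and by 1.36 with MI-2-2 and fell by 2.83 with iBET against DMSO (adjusted p = 0.037, 0.047 and 0.0167). The first 2 were, without DMSO replicate 2, 1.18 and 1.05 (adjusted p = 0.0948 and 0.124), and the iBET call was lost without either iBET library. Fcgrt, the neonatal Fc receptor, was at 7.98 and 4.12 TMM CPM in DMSO, 4.48 and 3.24 with MM-401, 15.7 and 9.46 with EPZ5676, 23.2 and 16.8 with MI-2-2 and 13.6 and 15.1 with iBET and rose with MI-2-2 (1.72, adjusted p = 0.00942; lost without MI-2-2 replicate 1). Cd1d1, which presents lipids, was at 17.8 and 29.8 TMM CPM in DMSO, 22.7 and 24.1 with MM-401, 12.5 and 10.8 with EPZ5676, 20.6 and 15.2 with MI-2-2 and 17.5 and 24.0 with iBET and fell with EPZ5676 by 1.03 (adjusted p = 0.0244; -0.59 with 0.105 without DMSO replicate 2).

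A total of 7 of the 27 tested members (25.9%) were higher in replicate 1 than in replicate 2 in all 5 groups, against 13.3% of all tested genes. They were H2-K1, H2-K2, H2-Ab1, Tapbp, Psmb9, Tap1 and H2-Q4, and were chosen after their values were seen. The reverse held for H2-Ke2 and Psmb10 (7.41%, against 16.2% of all tested genes).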
